A study of Mus musculus with 2 samples.

Results

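Elane-high granulocyte progenitors are bone marrow cells rich in transcripts for the proteases and myeloperoxidase of the early neutrophil granules. They were chosen cell by cell from counts of unique molecules (UMIs), scaled to 10000 UMIs per cell (CP10K). A cell was a member if under 20% of its UMIs came from mitochondrial genes and it held Elane at 10 CP10K or more, Mpo at 20 or more, Irf8 under 1, S100a8 plus S100a9 under 50 and Mcpt8 plus Prss34 under 20. The rule found 446 members among the 10342 cells under the mitochondrial limit, of which 261 lay among 6392 hypoxia cells and 185 among 3950 control cells.

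The cells came from lineage-depleted bone marrow of ICR mice, an outbred stock, aged 7 to 8 weeks, in a study of the response of haematopoietic progenitors to hypoxia. Mice of the hypoxia group lived for 13 days at a chamber pressure of 52.93 kPa (an altitude of 5000 m, per the labels) with oxygen at 19.5%, whereas control mice were sacrificed when they arrived and so were not housed in parallel. Each group was 1 BD Rhapsody library, and the sources used here do not give how many mice it came from. Hypoxia, time, handling and differences between animals therefore cannot be told apart, no test was possible, and every interval below covers counting error only.

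Neutrophils arise from progenitors shared with monocytes through the promyelocyte, the stage at which primary (azurophil) granules are filled with elastase, proteinase 3, cathepsin G and myeloperoxidase. Secondary and tertiary granules, with lactoferrin, gelatinase and antimicrobial peptides, form later in maturation. The transcription factors C/EBPα, C/EBPε and GFI1 promote the granulocytic fate, while IRF8 promotes the monocytic and dendritic fates.

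The members carried the RNA their label names. Elane (neutrophil elastase) ranged over 10.2 to 123 CP10K with a median of 47.7 in hypoxia members and over 10.1 to 170 with a median of 40.9 in control members. Mpo (myeloperoxidase) had medians of 92.7 CP10K in hypoxia members and 93.8 in control members. Prtn3 (proteinase 3) and Ctsg (cathepsin G), which the rule did not use, were found in 100% of members in both libraries. Their medians were 62.6 and 26.3 CP10K in hypoxia members, against 65.9 and 27.7 in control members. For both genes the cells of the libraries overlapped over most of their range.

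**Figure D1:**
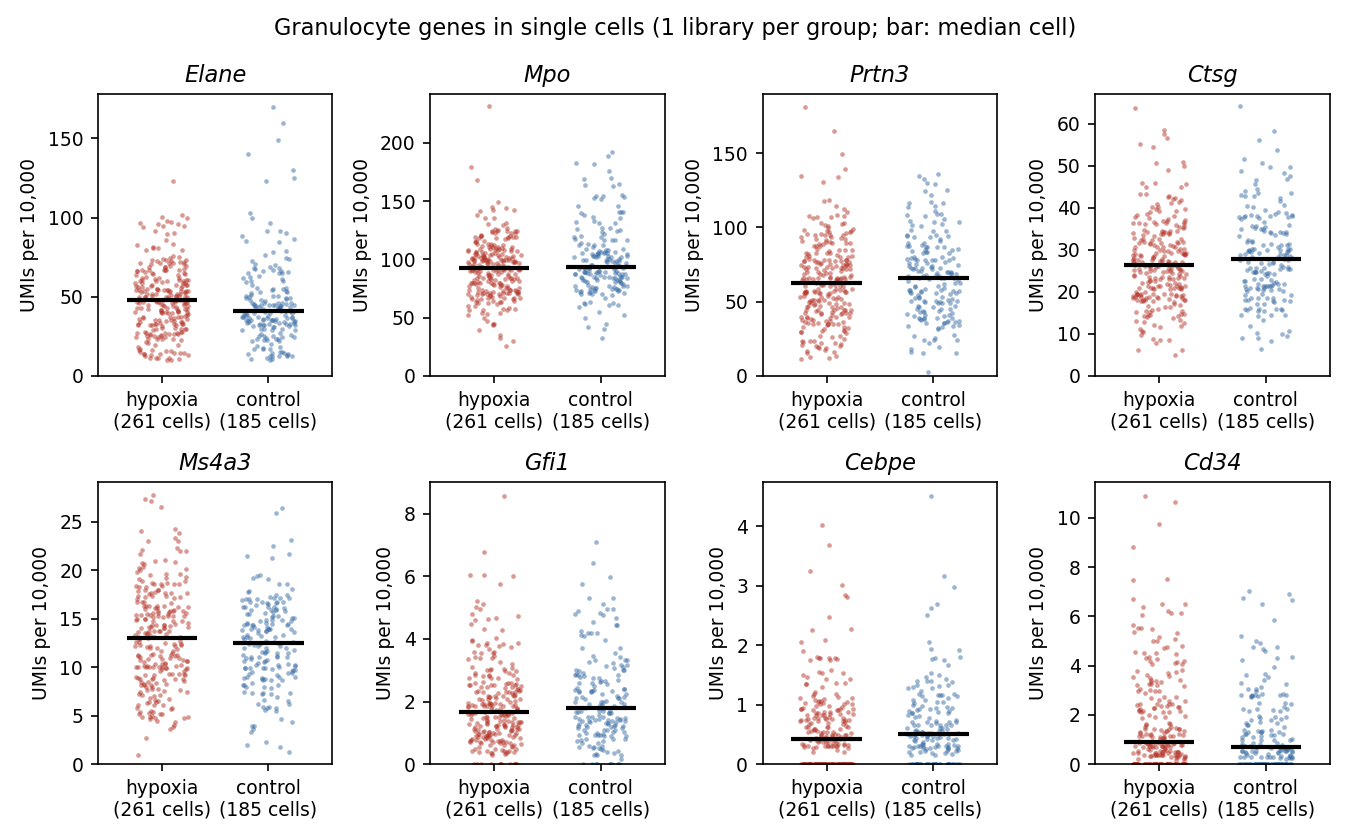
Level of 8 granulocyte or progenitor genes in each member cell (UMIs per 10,000 UMIs of the cell, points spread sideways at random), with a bar at the median of the 261 hypoxia and 185 control cells. Elane and Mpo helped choose the cells; in all 8 panels the clouds of both libraries overlap over most of their range.

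Around the limits of the rule, the lowest Elane value of a member was 10.2 CP10K in hypoxia and 10.1 in control, and the nearest cells that failed on Elane alone had 9.64 and 8.15. The highest Irf8 of a member was 0.969 in hypoxia and 0.982 in control, with the nearest cells outside at 1.04 and 1.12. For S100a8 plus S100a9 the values just inside were 40.6 in hypoxia and 45.9 in control, against 55.0 and 53.7 just outside. For Mcpt8 plus Prss34 they were 9.17 and 4.03 inside, against 32.2 and 37.2 outside. No cell failed on Mpo alone, and the lowest Mpo among members was 26.0 in hypoxia and 32.4 in control.

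Members made up 4.08% (exact 95% interval 3.61 to 4.60) of hypoxia cells and 4.68% (4.05 to 5.39) of control cells, a ratio of 0.872 with an interval of 0.719 to 1.06 that includes 1. The cells closest to them met every condition except the one on Irf8. These Irf8-positive neighbours were 297 hypoxia cells and 82 control cells, 4.65% of the hypoxia library and 2.08% of the control library, a ratio of 2.24 (1.75 to 2.89). They were 53.2% of members and Irf8-positive neighbours together in hypoxia, and 30.7% in control. A further 82 cells in each library failed only on Elane, which was 1.28% of hypoxia and 2.08% of control cells, and 9 hypoxia and 10 control cells failed only on S100a8 plus S100a9. These shares follow from the rule itself and describe where its limits cut.

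Members had a median of 23660 UMIs and 5464 genes in hypoxia and 31337 UMIs and 6106 genes in control. Their summed UMIs came to 6435257 and 5963058. Over all kept cells the median depth was 21584.5 UMIs in hypoxia and 32287 in control, so members and other cells alike were shallower in hypoxia. Scrublet marked 1.75% of hypoxia and 0.834% of control cells as doublets, among them 9 hypoxia and 4 control members. The libraries had 23 cell indices in common, of which 1 was a hypoxia member, 3 were control members and 0 were members in both.

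To compare genes, UMIs were summed over the members of a library and scaled to CPM (UMIs per 1000000 UMIs of that sum). For the log2 ratio of hypoxia over control, 10 CPM were first added to both sums, which understates the ratio of low genes. Of 9786 genes with at least 50 UMIs, 167 (1.71%) were at least 1.5-fold higher in hypoxia members, 113 (1.15%) were at least 1.5-fold lower and 9506 lay between, with a median log2 ratio of 0.02 and 45.5% of genes below 0. Those percentages are the background against which the counts of each gene group below are to be read. All gene groups and the 1.5-fold limit were chosen with earlier results of these data known. With 50 CPM added in place of 10, 26 genes were higher and 30 lower. Of the genes named below, Chil1, Cebpd, Trib1, Angpt1, Adgrg7, Fosb, Bst2, Oas1a, Lgals3bp, Isg20, Hspa1b, Pdia4, Hsp90b1, Tipin, Atp5e, Cenpf, Cdkn2c, Hba-a2 and Hbb-bt then lay between the limits.

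**Figure D2:**
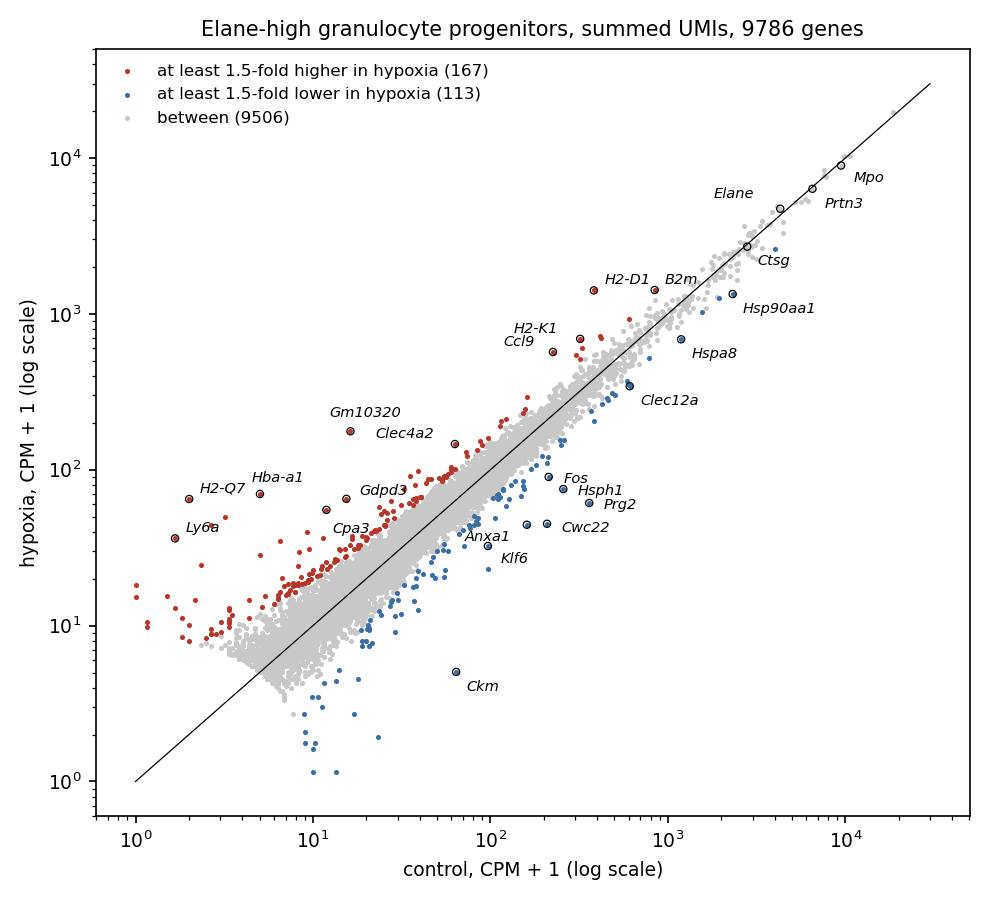
Summed level of 9786 genes in members, hypoxia against control (CPM plus 1, both axes logarithmic), with the line of equal levels. Red and blue points are the 167 and 113 genes past 1.5-fold; the granule genes Elane and Mpo, which chose the cells, and Prtn3 and Ctsg sit near the line, H2-D1, Ccl9 and H2-Q7 far above it and Ckm, Cwc22 and Hsph1 far below.

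Most primary granule genes stayed between the limits. Of 19 measured genes among 20 listed, 1 was higher (5.26%, against 1.71% of all measured genes) and 0 were lower. The median log2 ratio was 0.08. Elane and Mpo, which are in the list, chose the cells, so their levels are a description. Of the genes it did not use, Prtn3 stood at 6341 CPM in hypoxia members and 6522 in control members, and Ctsg at 2700 and 2800, ratios of 0.972 (0.959 to 0.986) and 0.964 (0.944 to 0.985). Ms4a3, a membrane protein typical of granulocyte-monocyte progenitors, had 1306 CPM in hypoxia and 1233 in control. Serglycin (Srgn), the proteoglycan on which granule proteases are stored, had 5183 and 5640 CPM. All 6 measured genes of the phagocyte NADPH oxidase stayed between the limits, with a median log2 ratio of 0.07.

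Among genes of later granules, Anxa1 had the lowest ratio. Of 20 listed, 9 were measured, and 3 of these were lower and 1 higher in hypoxia. Anxa1, which encodes the annexin stored in gelatinase granules, had 43.4 CPM in hypoxia members and 159 in control members (ratio 0.272, 0.237 to 0.311). In single cells its level ran over 0 to 5.03 CP10K with a median of 0 in hypoxia, against 0 to 10.9 with a median of 1.18 in control, and 28 of the 261 hypoxia cells exceeded the control median. Haptoglobin (Hp), a haemoglobin-binding protein of specific granules, had 142 CPM in hypoxia and 248 in control, with single-cell medians of 1.23 and 2.002 CP10K. Wfdc21, a small whey-acidic-protein-domain gene, had 48.2 CPM in hypoxia and 104 in control. Chil1, a chitinase-like protein, was the higher gene with 32.0 and 17.4 CPM, but its call was lost when the 3 bands of Elane level described below were given equal weight, as well as with 50 CPM added. The single-cell values of these genes overlapped between the libraries, with the hypoxia cells crowded at the low end for Anxa1.

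Outside the members these differences took other sizes. The log2 ratio of Anxa1 was -1.67 in members, -0.33 in Irf8-positive neighbours, -0.08 in the cells that failed only on Elane, 0.92 in the 9 and 10 S100-high neighbours and 0.82 in all cells other than members. For Wfdc21 it was -0.98 in members, -0.02, 0.00 and -1.04 in those neighbours and -0.77 in all other cells. For Hp it was -0.76 in members, -0.42, -0.35 and -1.33 in the neighbours, and 0.32 in all other cells. The cells that failed only on Elane differed from members in more than Elane. In sum they held the eosinophil gene Prg2 at 16305 CPM in hypoxia and 5194 in control, against 60.1 and 359 in members. Ly6c2 was at 57.1 and 55.6 CPM in them, against 1659 and 2451 in members. Their ratios, here and below, are thus not those of near-identical cells. Whether these ratios differ between cell groups beyond chance cannot be tested with 1 library each.

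Most regulators of the granulocytic fate stayed between the limits. Of 22 measured among 24 listed, 2 were lower (9.09%, against 1.15% of all measured genes) and 0 higher in hypoxia. A log2 ratio below 0 was found for 14 (45.5% over all measured genes), and the median was -0.14. Cebpd had 74.0 CPM in hypoxia and 117 in control, and Trib1, a pseudokinase that promotes degradation of C/EBPα, had 8.70 and 19.6 CPM. Cebpb lay just inside the limit at 55.9 against 88.4 CPM (log2 ratio -0.58). Cebpa had 228 CPM in hypoxia and 284 in control, Gfi1 had 186 and 194, and Cebpe had 52.99 and 62.4. The calls on Cebpd and Trib1 were lost when cells were given equal weight.

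None of the 18 measured receptors for growth factors and cytokines passed 1.5-fold, with a median log2 ratio of 0.07. The G-CSF receptor Csf3r had 85.5 CPM in hypoxia members and 120 in control members (log2 ratio -0.45). The chemokine receptor Cxcr4, which retains neutrophils in the marrow, had 151 and 203 CPM. The stem cell factor receptor Kit had 244 and 212 CPM, and the interferon gamma receptor chain Ifngr1 had 418 and 353.

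Among 16 measured genes of early progenitors, 2 were higher and 0 lower in hypoxia. Ly6a, which encodes the stem cell antigen Sca-1, had 35.3 CPM in hypoxia (227 UMIs) and 0.671 CPM in control (4 UMIs), a ratio of 52.6 with a wide interval of 20.3 to 195. At an equal depth of 5000 UMIs per cell it was seen in 13.8% of hypoxia and 0.541% of control members. Without thinning the shares were 37.9% and 2.16%, and in erythroid cells, which should lack the gene (median depths 19207 and 33406.5 UMIs), the share was 0% in both libraries. Angpt1, the ligand of the receptor TIE2, had 36.5 CPM in hypoxia and 15.6 in control. The log2 ratio of Ly6a was 2.09 in members, 1.47 in Irf8-positive neighbours (27.1 and 3.42 CPM), -0.35 in the cells that failed only on Elane and 0.41 in all other cells, so it stood higher in the neighbours most like members as well. For Angpt1 it was 0.86 in members, 0.10 and 0.62 in those neighbours and 0.67 in all other cells.

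The members were not uniform, and the RNA of some genes ran with the level of Elane itself. Cells were split at 35.6 and 53.7 CP10K of Elane, which cuts the pooled members into 3 bands of about equal size. The low, middle and high bands held 78, 83 and 100 hypoxia cells, but 71, 65 and 49 control cells. Sums over all members thus mix the bands in other proportions in each library. Within these bands the log2 ratio of Prtn3 was -0.19, -0.12 and -0.19, and that of Ctsg was -0.20, -0.16 and -0.14. The median of the primary granule list was -0.04, -0.03 and 0.02. Among genes chosen afterwards for their rank correlation with Elane across cells, Ctsg reached a Spearman rho of 0.73 in hypoxia and 0.72 in control, Prtn3 0.72 and 0.77, Ly6c2 0.72 and 0.65, and Clec12a 0.62 and 0.69. Cd34, a surface marker of early progenitors, ran opposite with -0.67 and -0.63, and the transcription factor Sox4 with -0.57 and -0.62. These coefficients, over 261 and 185 cells, describe cells that share a library and a scaling to the same total, and Elane was a gene of the rule.

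Across low, middle and high bands, Cd34 had 325, 155 and 48.2 CPM in hypoxia and 212, 103 and 40.8 CPM in control. Fcnb, a ficolin of later granules, had 2.50, 17.8 and 58.1 CPM in hypoxia and 3.16, 13.7 and 84.6 CPM in control. In both libraries Cd34 thus declined and Fcnb climbed with Elane. Ly6c2, a surface protein of monocytes and granulocyte precursors, climbed in both but stood lower in hypoxia at each band, with 741, 1592 and 2516 CPM against 1420, 2826 and 3823. Clec12a, an inhibitory C-type lectin receptor, had 178, 340 and 486 CPM in hypoxia and 394, 613 and 1009 in control. Anxa1 had 62.1, 36.6 and 33.4 CPM in hypoxia, against 138, 145 and 223 in control, so the gap was widest in the cells with most Elane. H2-D1 showed no such order, at 1482, 1376 and 1387 CPM in hypoxia and 364, 394 and 396 in control.

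**Figure D3:**
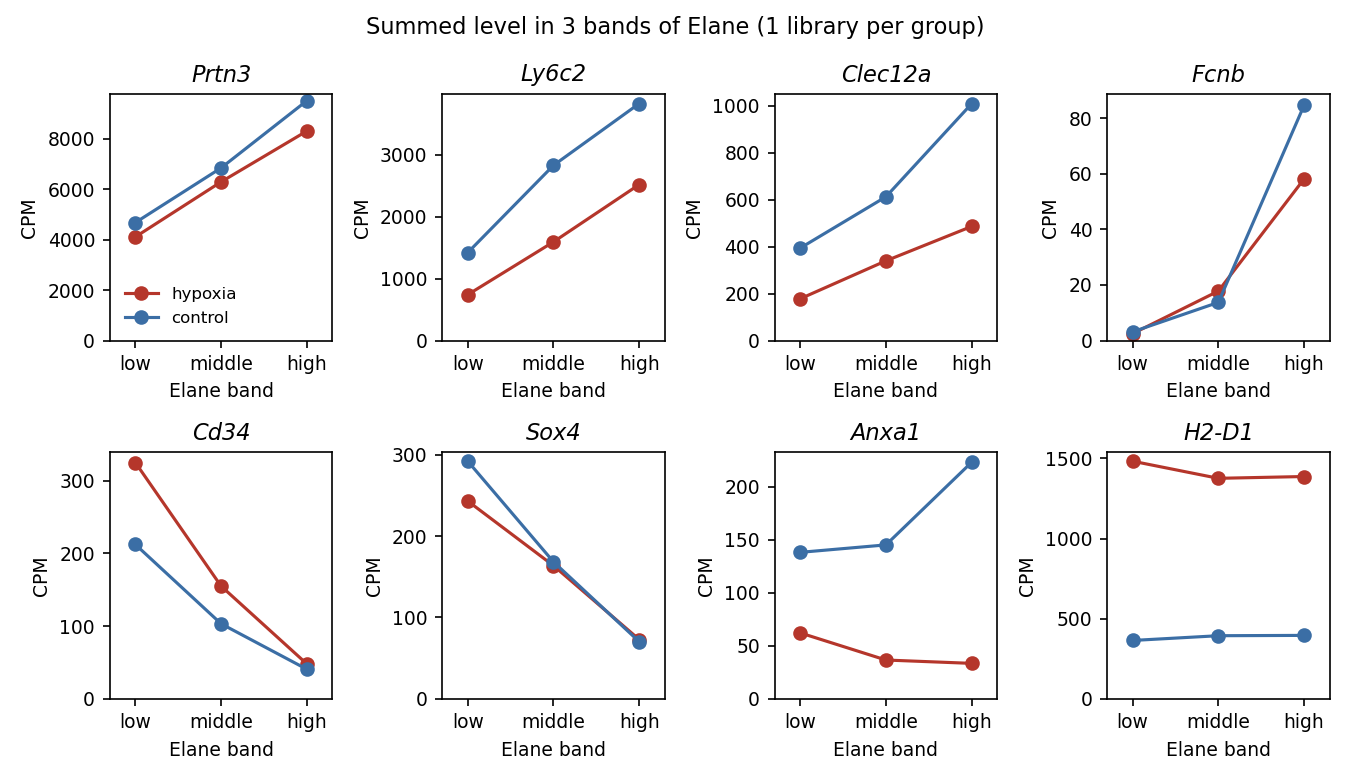
Summed level (CPM) of 8 genes in members with low, middle and high Elane, hypoxia in red and control in blue, 1 library each. Cd34 and Sox4 decline and Prtn3, Ly6c2, Clec12a and Fcnb climb with Elane in both libraries; Clec12a and Ly6c2 lie lower and H2-D1 higher in hypoxia in every band.

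Major histocompatibility complex (MHC) class I genes, whose products display peptides to T cells, had the highest median ratio of the 28 lists that are not cell type markers. Of 22 measured, 7 were higher and 0 lower, and the median log2 ratio was 0.33. H2-D1, which encodes a classical heavy chain, had 1413 CPM in hypoxia members and 382 in control members (3.70-fold, 3.54 to 3.88). Its single-cell values ran over 5.17 to 34.8 CP10K with a median of 13.8 in hypoxia, against 0.598 to 10.3 with a median of 3.67 in control. Every hypoxia member exceeded the control median, and 205 of 261 exceeded the highest control cell. H2-K1 had 690 CPM in hypoxia and 319 in control (2.16-fold, 2.05 to 2.28), and B2m, the light chain shared by class I molecules, had 1422 and 841.

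The Q-region genes H2-Q4, H2-Q6 and H2-Q7 had 96.5, 43.2 and 63.9 CPM in hypoxia members and 37.9, 1.68 and 1.01 CPM in control members. These loci are near-identical copies of one another, so how reads were split between them is uncertain. In the cells other than members the log2 ratio of H2-D1 was 2.08, of H2-K1 1.08 and of B2m 0.92, against 1.86, 1.09 and 0.75 in members, so the class I differences were present across the libraries.

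Of 30 measured interferon response genes, 7 were higher, 0 were lower and the median log2 ratio was 0.25. Lgals3bp, a secreted glycoprotein, had 81.3 CPM in hypoxia and 42.6 in control, the antiviral membrane protein gene Bst2 had 29.4 and 13.2, and the oligoadenylate synthetase gene Oas1a had 17.6 and 7.21. All 3 were low genes. The call on Isg20, with 16.9 against 6.71 CPM, was lost when members had to hold 20 CP10K of Elane.

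**Figure D4:**
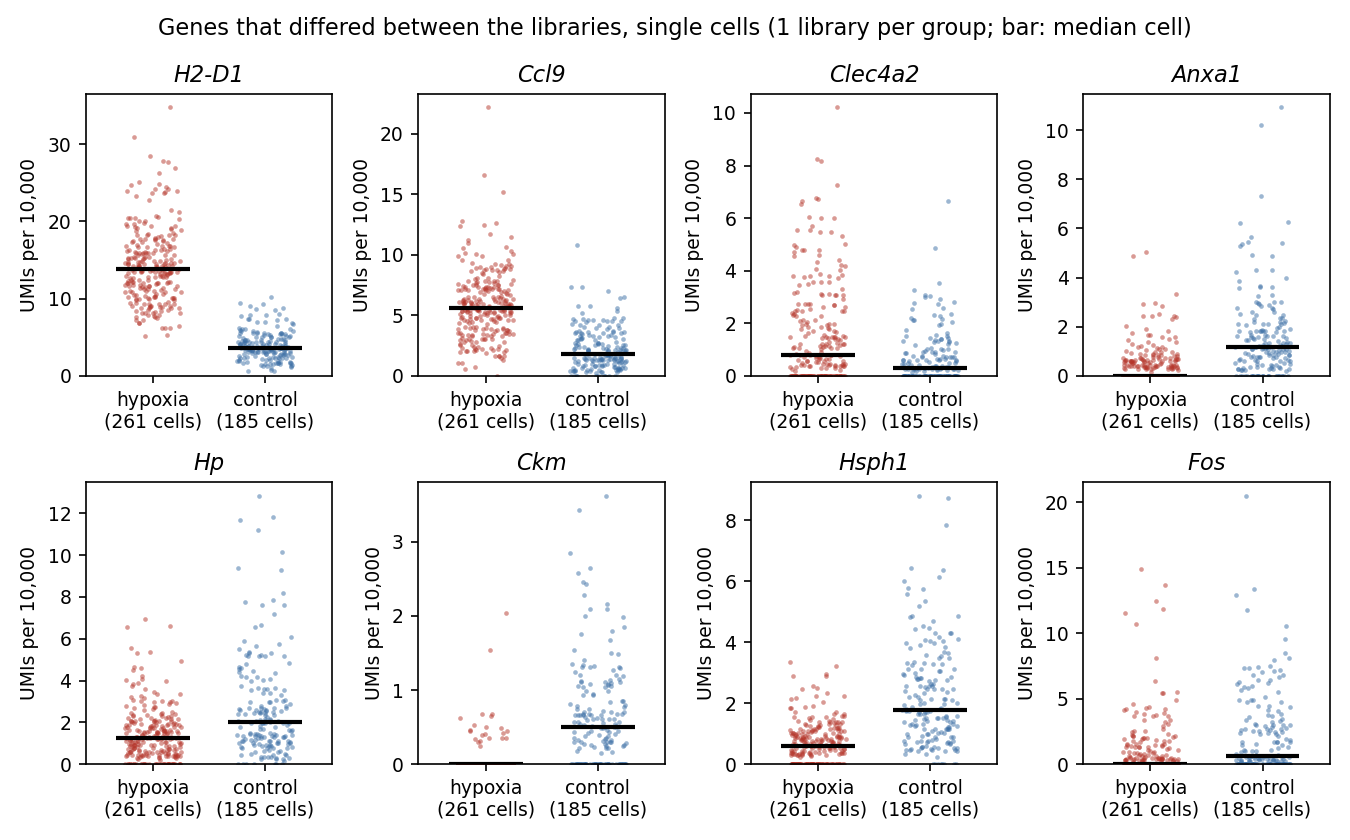
Level of 8 genes that differed between the libraries in each member cell (UMIs per 10,000 UMIs of the cell, points spread sideways at random), with a bar at the median cell of each library. H2-D1 nearly separates hypoxia from control cells, Ccl9 is shifted up, and Anxa1, Ckm and Hsph1 are crowded near 0 in hypoxia; the other panels overlap widely. The genes were picked after their values were seen.

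Single genes with the highest ratios belonged to no one class. Ccl9, a CC chemokine made by myeloid cells, lies at chr11:83572919-83578636 (GRCm38) and had 568 CPM in hypoxia members and 224 in control members (2.54-fold, 2.38 to 2.70). Its single-cell median was 5.64 CP10K in hypoxia and 1.81 in control, and 250 of 261 hypoxia cells exceeded the control median. The log2 ratio of Ccl9 was 1.31 in members, 1.12 in Irf8-positive neighbours and 0.96 in the cells that failed only on Elane. It was 3.23 in the few S100-high neighbours and 1.81 in all other cells, so higher Ccl9 was not particular to members. Clec4a2, an inhibitory C-type lectin receptor at chr6:123106428-123143999, had 145 CPM in hypoxia and 62.0 in control. It increased with Elane in both libraries, at 35.1, 121 and 263 CPM in the hypoxia bands and 26.9, 67.3 and 121 CPM in the control bands.

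Scnn1a, a subunit of the epithelial sodium channel, had 89.8 CPM in hypoxia and 34.0 in control, with a log2 ratio of 1.18 in members, 0.79 in Irf8-positive neighbours and 0.34 in all other cells, where it was under 5 CPM in both libraries. Unc13d, which encodes the granule-docking protein Munc13-4, had 74.0 and 31.4 CPM. The adhesion receptor gene Adgrg7 had 56.3 and 22.5 CPM, and the phospholipid-metabolising enzyme gene Gdpd3 had 64.0 and 14.4. For Adgrg7 the log2 ratio was 1.03 in members and 1.10 in all other cells. Gm10320, a predicted protein-coding gene, had the highest log2 ratio of those named by rule, 2.88, with 175 CPM in hypoxia and 15.3 in control. In all other cells the log2 ratio of Gm10320 was 2.45.

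Heat shock chaperones, which fold proteins and are induced by heat shock factor under protein stress, contained 6 lower and 0 higher genes in hypoxia among 28 measured, with a median log2 ratio of -0.20. Hsph1, an HSP110 chaperone, had 74.1 CPM in hypoxia members and 256 in control members (ratio 0.289, 0.260 to 0.321). Its single-cell median was 0.587 CP10K in hypoxia and 1.78 in control, and 18 of 261 hypoxia cells exceeded the control median. Hsp90aa1, the inducible HSP90, had 1339 and 2316 CPM, and the HSP40 co-chaperone gene Dnaja1 had 347 and 604. Hspa8, the constitutive HSP70, had 686 and 1186 CPM, and the sixth lower gene was the HSP110 family member Hspa4l. Hspa1b had 1.71 CPM in hypoxia and 15.9 in control, but its near-identical copy Hspa1a makes that value uncertain.

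The chaperone promoters are shown because these genes stood lower together. The RefSeq windows (GRCm38.p6) run from 250 bases before to 50 bases after the gene start, and capitals mark matches to the heat shock element pair GAANNTTC or TTCNNGAA, searched on both strands with overlaps counted. Hsph1 (chr5:149636287-149636586, minus strand) and Dnaja1 (chr4:40722218-40722517, plus strand) read as follows.
Hsph1: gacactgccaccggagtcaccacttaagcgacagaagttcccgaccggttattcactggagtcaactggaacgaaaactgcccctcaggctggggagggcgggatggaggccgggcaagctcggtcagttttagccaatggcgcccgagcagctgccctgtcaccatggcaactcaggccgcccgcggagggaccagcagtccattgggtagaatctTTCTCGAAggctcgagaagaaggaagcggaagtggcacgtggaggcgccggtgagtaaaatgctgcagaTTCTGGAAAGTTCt
Dnaja1: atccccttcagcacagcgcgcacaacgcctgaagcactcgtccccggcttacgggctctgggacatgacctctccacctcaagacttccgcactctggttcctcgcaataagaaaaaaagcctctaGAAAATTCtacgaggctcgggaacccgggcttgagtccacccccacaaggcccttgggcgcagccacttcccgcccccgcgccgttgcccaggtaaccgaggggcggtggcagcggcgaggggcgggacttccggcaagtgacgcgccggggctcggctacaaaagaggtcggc

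The Hsph1 window held 3 matches, of which the last pair overlap, and the Dnaja1 window held 1. Of the 6 lower chaperone genes 4 had a window, and 3 of these held a match (Hsph1, Dnaja1 and Hspa1b, not Hspa4l), as did 5 of 18 windows of the chaperones between the limits. Over all 27025 windows searched, 1 per gene, the share with a match was 15.1%. Only the first listed window of each gene was used. Hsph1 had 2 listed windows, Dnaja1 3 and H2-K1 2, and their other windows were not searched. The windows of the MHC class I list were searched likewise for an interferon element, taken as a pair of TTTC blocks 2 bases apart. A match was found in 1 of the 6 windows of its higher genes (B2m), in 4 of 13 windows of its genes between the limits and in 3.49% of all windows. The windows of H2-D1, H2-K1, H2-Q4, H2-Q6 and H2-Q7 held no match. Each of them held TTTCACTTCT, which departs from the pattern only at its last bases. This strict search therefore cannot show that these promoters lack an interferon element. A match is a description of letters, and binding was not measured.

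The log2 ratio of Hsph1 was -1.66 in members, -1.43 in Irf8-positive neighbours, -1.85 in the cells that failed only on Elane and -2.30 in all other cells. For Hsp90aa1 it was -0.79 in members and -1.31 in all other cells, and for Dnaja1 -0.78 and -1.39. Lower chaperone RNA was therefore not confined to members.

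Immediate early genes, transcription factors and regulators that are induced rapidly when a cell is stimulated, held the largest share of lower genes among the 38 lists. Of 23 measured, 12 were lower and 0 higher in hypoxia, and the median log2 ratio was -0.63. Fos had 88.9 CPM in hypoxia members and 212 in control members (ratio 0.419, 0.379 to 0.463). In single cells it ran over 0 to 14.9 CP10K with a median of 0 in hypoxia, against 0 to 20.5 with a median of 0.620 in control, so the cells overlapped over most of the range. Klf6, a Krüppel-like factor, had 31.4 CPM in hypoxia and 95.8 in control, Fosb had 21.8 and 54.3, and the mRNA-decay factor gene Zfp36 had 57.7 and 122. Dusp1, a phosphatase of MAP kinases, had 77.2 and 152 CPM.

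Outside members the differences in immediate early genes took other sizes. The list's median log2 ratio was -0.56 in Irf8-positive neighbours, -0.85 in the cells that failed only on Elane and -0.19 in all other cells. For Klf6 the ratio was -1.35 in members, -0.82 and -1.21 in those neighbours and 0.09 in all other cells. For Fos it was -1.17 in members, -0.58 and -1.13 in the neighbours and -0.36 in all other cells.

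Protein folding and export, on which granule filling depends, also held lower genes. Of 24 measured genes of the unfolded protein and integrated stress responses, 4 were lower and 0 higher in hypoxia, with a median log2 ratio of -0.33. Creld2, a secreted endoplasmic reticulum protein, had 74.1 CPM in hypoxia members and 154 in control members, and Sdf2l1, a partner of the chaperone BiP, had 205 and 384. The BiP gene Hspa5 stayed just inside the limit at 1278 against 1884 CPM. Of 40 genes of the secretory machinery, 3 were lower and 0 higher, among them the disulfide isomerase gene Pdia4 with 122 and 193 CPM. Hsp90b1 (1030 and 1565 CPM) counts in both lists, and its call was lost when Irf8 was allowed up to 2 CP10K. The median of the stress response list was also below 0 outside members. It was -0.29 in Irf8-positive neighbours, -0.31 in the cells that failed only on Elane, -0.08 in the few S100-high neighbours and -0.22 in all other cells. Lower stress response RNA was therefore not particular to members.

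**Figure D5:**
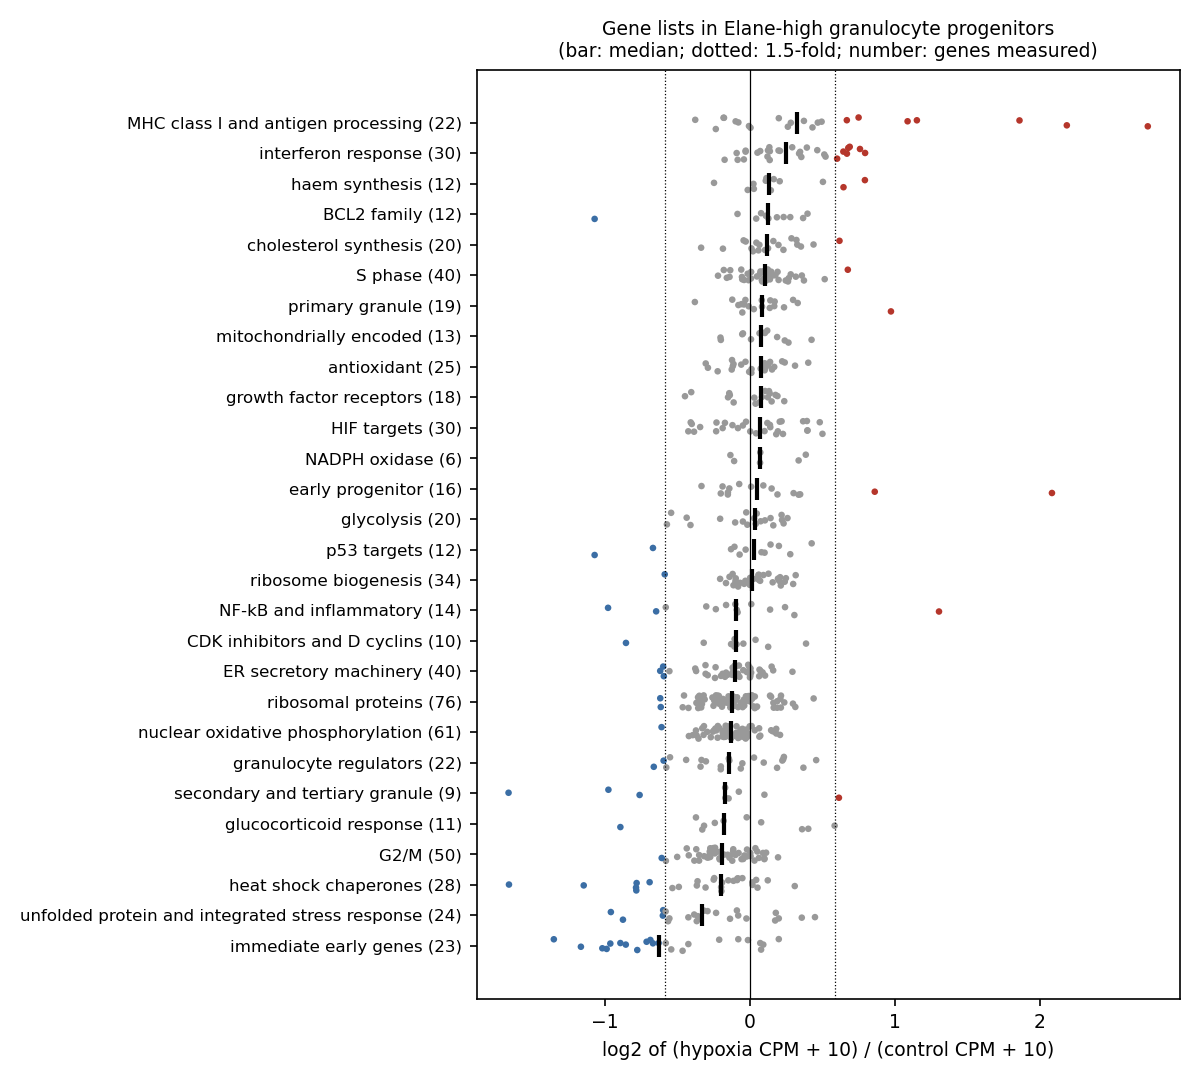
Log2 ratio of hypoxia over control in members for each measured gene of 28 lists, with the list median as a bar and 1.5-fold as dotted lines. MHC class I and interferon response genes have the highest medians and immediate early and stress response genes the lowest, while single genes of other lists also lie far out; the medians of primary granule, HIF target and glycolysis genes lie near 0.

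Classical hypoxia targets and energy metabolism showed few differences. Of 30 measured targets of hypoxia-inducible factor (HIF), 0 were higher and 0 lower, with a median log2 ratio of 0.07. Pdk1, which restrains pyruvate entry into mitochondria, had 54.7 CPM in hypoxia members and 35.7 in control members, and the histone demethylase gene Kdm3a had 33.3 and 20.96. Neither passed the limit. Of 20 measured genes of glycolysis 0 passed, and the lowest was Gapdh at 1095 against 1633 CPM (log2 ratio -0.57). Of 61 nuclear genes of oxidative phosphorylation 1 was lower (Atp5e, 239 and 369 CPM), and 50 had a log2 ratio below 0, against 45.5% of all measured genes, with a median of -0.13. Of 76 ribosomal protein genes 2 were lower, Rpl30 among them, and the median was -0.12. The calls on Atp5e and Cenpf, a mitotic gene below, were lost when cells were given equal weight.

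Cell cycle genes differed little. Of 40 S phase genes 1 was higher (Tipin, a replication fork protein, 122 and 72.6 CPM) and the median log2 ratio was 0.11. Of 50 G2/M genes 1 was lower (the kinetochore gene Cenpf, 67.6 and 108 CPM), 39 had a log2 ratio below 0, against 45.5% of all measured genes, and the median was -0.19. In Irf8-positive neighbours the G2/M median was 0.35. Among 10 cyclin and inhibitor genes 1 was lower, the CDK inhibitor gene Cdkn2c, with 6.37 CPM in hypoxia and 19.6 in control.

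The genes with the lowest ratios included several with no known granulocytic role. Ckm, the muscle creatine kinase gene at chr7:19404776-19422841, had 4.04 CPM in hypoxia members and 63.1 in control members (ratio 0.0641, 0.0413 to 0.0954). It was seen in 8.43% of hypoxia and 70.8% of control members, or 3.07% and 26.5% at 5000 UMIs per cell, against 0.565% and 0% of erythroid cells unthinned. Cwc22, a splicing factor gene, had 44.0 and 207 CPM, and its log2 ratio was -2.01 in members and -1.81 in all other cells. Glo1, the glyoxalase that detoxifies methylglyoxal, had 67.0 and 147 CPM, with ratios of -1.03 in members and -1.23 elsewhere. The long noncoding RNA gene 4933440M02Rik (chr7:125284025-125349788) had 22.1 and 96.1 CPM, with log2 ratios of -1.73 in members, -2.36 in Irf8-positive neighbours, -1.51 in the cells that failed only on Elane and -1.74 in the few S100-high neighbours. For Ckm the ratios were -2.38 in members and -2.09, -1.90 and -1.19 in those neighbours, so the nearest cells showed both differences too. In all other cells both genes were under 10 CPM in both libraries, 0.367 and 2.97 CPM for 4933440M02Rik and 1.55 and 8.51 CPM for Ckm.

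Transcripts listed as markers of other lineages were present in some members and differed between the libraries. As many as 44 hypoxia and 11 control members held 5 CP10K or more of basophil and mast, eosinophil or erythroid markers. On the basophil and mast list alone, 35 and 6 members reached that level. Of the 3 measured basophil and mast markers 2 were higher, Cpa3 (carboxypeptidase A3) with 54.2 CPM in hypoxia and 10.9 in control and Hdc (histidine decarboxylase) with 210 and 121. The list summed to 271 CPM in hypoxia and 139 in control, and over single cells to at most 33.8 and 12.6 CP10K. Hdc alone made up most of both sums, and whether the members that reached the level are basophil or mast cells was not tested. Of its 6 genes Cd200r3 was at 0 in hypoxia. Without the 44 and 11 members both calls were lost, which follows from leaving out cells by these markers. All 8 erythroid markers were measured and 5 were higher, with Hba-a1 (α globin) at 68.8 against 4.02 CPM, but 1 hypoxia cell held 36.3% of the Hba-a1 UMIs of its library and its near-identical copy Hba-a2 makes the split uncertain. The calls on Hba-a2 and Hbb-bt were lost without Scrublet doublets and, as the list itself chose those cells, without the 44 and 11 members. In all other cells the log2 ratio was also above 0, at 1.29 for Hba-a1 and 1.55 for Hbb-bs. The erythroid list summed to 267 CPM in hypoxia and 118 in control, and over single cells to at most 109 and 25.9 CP10K.

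Of 5 measured eosinophil markers 1 was higher and 2 lower. Prg2 (major basic protein) had 60.1 CPM in hypoxia members and 359 in control members, but single cells held 77.5% and 52.6% of those UMIs. Without the 44 and 11 members that carry other-lineage RNA, which Prg2 helped to choose, its log2 ratio turned from -2.40 to 0.65. The list summed to 103 CPM in hypoxia and 416 in control. Of 5 measured monocyte and dendritic markers 1 was higher, Ms4a6c with 33.9 CPM in hypoxia and 5.53 in control, and 1 lower, the transglutaminase gene F13a1 with 120 and 209. Ly6c2 had 1659 and 2451 CPM and carried most of that list's sum of 1836 CPM in hypoxia and 2688 in control. Csf1r, the receptor for M-CSF, was at 11.0 and 9.56 CPM, and Cd74 was at 0 in control. The call on F13a1 was lost when Irf8 was allowed up to 2 CP10K.

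Markers of lymphoid and megakaryocytic cells were near 0, apart from Nkg7, which these progenitors also express and which made up nearly all of the 954 CPM in hypoxia and 936 in control of the T and NK list. Of that list Cd3e, Trbc1, Gzma and Klrd1 were at 0 in both libraries. The B lineage list summed to 18.6 CPM in hypoxia and 28.2 in control, the megakaryocyte list to 17.4 and 23.8, the macrophage list to 50.7 and 38.4, the stem cell list to 57.7 and 58.5, and the list of late neutrophil markers to 21.4 and 16.1. Without the 44 and 11 members that carry other-lineage RNA, 148 genes were higher and 116 lower, of which 130 and 103 were among the 167 and 113 called with them.

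Set beside the cells around them, members stood apart in genes other than those of the rule. These genes were ranked after their values were seen and the contrast follows from the rule, so the values are a description. Against the Irf8-positive neighbours, Pglyrp1, an antibacterial peptidoglycan recognition protein of granules, had 255 CPM in hypoxia members and 23.3 in their neighbours, and 283 in control members and 47.5 in theirs. Cebpe had 52.99 against 5.53 CPM in hypoxia and 62.4 against 12.5 in control. The reverse held for Ccr2, a chemokine receptor of monocytes, with 3.57 against 192 CPM in hypoxia and 5.70 against 92.4 in control.

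Against the few S100-high neighbours, the cathelicidin gene Camp had 5.28 CPM in hypoxia members and 2854 in those neighbours, and 2.01 in control members and 2068 in theirs. Against all other cells, Gfi1 had 186 against 7.00 CPM in hypoxia and 194 against 6.82 in control, and Gstm1, a glutathione transferase, had 1601 against 85.0 and 1483 against 44.7.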

How the data were processed

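For each library the authors deposited 1 table of raw UMI counts, error-corrected and not normalized, with cells in rows and genes in columns. Per the file headers it came from BD's WTA Rhapsody pipeline, version 1.7.1, with the GRCm38 genome and the annotation GENCODE vM19; the submitters' processing notes add Bowtie2. The sources used here do not say how cells were called. The tables held 6406 hypoxia and 3956 control cells with 137504361 and 121415081 UMIs, and 14 and 6 cells at or above 20% mitochondrial UMIs were left out. Genes listed in 1 table were set to 0 in the other.

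Member counts were summed per library and scaled to CPM with Python 3.11.15, numpy 2.4.6 and scipy 1.17.1, with 10 CPM added before log2. Doublets were called with Scrublet in scanpy 1.11.5 and not removed. Shares have exact Clopper-Pearson intervals, and ratios exact conditional ones that take counts as Poisson and leave out variation between cells and animals. On simulated Poisson counts of 9786 genes, 100 of 100 genes moved 2-fold kept their direction and 77 passed 1.5-fold. Of 100 genes moved 4-fold 97 passed, and 0 of 9586 unmoved genes did. Counting error was the only scatter simulated, so these values give no rate of false calls for the real libraries.

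The members, gene lists and tests were chosen with earlier results of these data known. Named genes are the 12 highest and 12 lowest log2 ratios with at least 50 CPM in either library and no cell above 20% of the UMIs (Hba-a1 and Prg2 exceeded it), all measured primary granule, regulator and receptor genes, and up to 4 of the largest of each other list. A primary granule gene and a ribosomal protein gene that this rule names are not reported here. Ranked correlations with Elane, differences from neighbours, the promoter motifs, the erythroid cells (Klf1 at 5 CP10K or more, Mpo under 1), the plotted genes, B2m, Hspa8, Hspa4l and Clec12a were chosen after their values were seen. Gene positions are from GENCODE vM21 on GRCm38.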

Additional observations from a re-analysis of the deposited data

How the results depend on the processing

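Under the 11 alternatives the member share had ratios of hypoxia over control of 0.771 to 0.921. All lay within the main interval of 0.719 to 1.06, which includes 1. The alternatives use largely the same cells of the same libraries, so their likeness is no independent support for a difference. Adding 1 CPM before log2 gave 535 genes higher and 314 lower in hypoxia, and adding 50 CPM gave 26 and 30, against 167 and 113 with 10 CPM. The other alternatives gave 144 to 231 higher and 109 to 167 lower genes. The widest, cells thinned to 5000 UMIs, shared only 63 higher and 62 lower genes with the main calls. After thinning 6453 genes had at least 50 UMIs, against 9786 in the main setting, and genes below that minimum could not be shared. Of 70 named genes past 1.5-fold, 37 lost the call under at least 1 alternative. Prg2 turned from a log2 ratio of -2.40 to 0.63 with Elane at 20 CP10K or more and to 0.65 without members carrying other-lineage RNA, an alternative chosen after seeing the data. The median of the basophil and mast markers turned from 0.75 to -0.000661 with no minimum of UMIs. The cause was not tested for these, beyond the single cells that hold most Prg2. TMM and median-of-ratios scaling shifted log2 ratios by -0.037 and -0.033. No paired analysis was possible because each group had 1 library, and for the same reason no replicate could be left out. Genes near 0 in a library are limited by depth.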
